A study of Mus musculus with 12 samples.

Results

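The T follicular helper (Tfh) genes described here are 9 genes known for their link to this subset of CD4+ T cells, not all of them particular to it: Bcl6, Ascl2, Maf, Tox2, Cxcr5, Icos, Il21, Cd40lg and Sostdc1. They were taken by name from the 35275 genes of the deposited table, which held 9 of 9, and their levels were compared over 12 females, 3 to a group, in 4 groups. CD4+ T cells were purified from C57BL/6 (B6) mice and from SLE123 mice, a strain labelled B6.NZMSle1/Sle2/Sle3 in which the NZM2410 regions Sle1, Sle2 and Sle3, known for lupus susceptibility, sit on the B6 background, at an age of 9 to 12 weeks. In each strain 1 group had received anti-CD45RB (clone MB23G2), a monoclonal antibody against an isoform of the surface phosphatase CD45, in 5 injections of 100 µg between day 0 and day 7, and the other was left untreated. The strains differ in all 3 regions at once, so a strain difference cannot be told apart by region. The study's methods describe a further sort on CD25 that the sample titles do not name, and the titles of the treated SLE123 libraries add the letter C without saying what it stands for, so the group was read from the title together with the treatment field that names the antibody.

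Tfh cells are the CD4+ T cells that enter B cell follicles and help B cells in germinal centers to make antibodies of high affinity. Bcl6 is the transcriptional repressor on which the subset depends, and Ascl2, Maf and Tox2 are transcription factors that act with it. Cxcr5 is the receptor for the follicular chemokine Cxcl13, Icos is a costimulatory receptor for a ligand on B cells, and Il21 and Cd40lg encode the cytokine and the membrane ligand through which B cells are helped. Sostdc1 encodes a secreted antagonist of BMP and Wnt signals that Tfh cells express. In lupus, this help to B cells is tied to the making of autoantibodies.

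The members lie on 9 chromosomes (coordinates in GRCm38, GENCODE release M21). Among the transcription factors, Bcl6 lies at chr16:23965052-23988852 (- strand), Ascl2 at chr7:142966829-142969264 (- strand), Maf at chr8:115682942-115707794 (- strand) and Tox2 at chr2:163203125-163324170 (+ strand). The receptors are at chr9:44511787-44561877 (Cxcr5, - strand) and chr1:60977927-61000320 (Icos, + strand). The helper molecules are at chr3:37222759-37232636 (Il21, - strand) and chrX:57212143-57224042 (Cd40lg, + strand), and Sostdc1 is at chr12:36314139-36318452 (+ strand). Exons of Cxcr5 share 110 bases with Bcl9l on the opposite strand (mean 35.3 FPKM over the 12 mice), and exons of Il21 share 469 bases with the antisense gene Gm12534 (2.62 FPKM). Whether strand was used in counting is not stated, so reads in these stretches cannot be assigned to either gene.

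Proximal promoters are shown for the members present in the RefSeq promoter table (GRCm38.p6), which held 4 of the 9, because 3 of them are transcription factors of the program and the other encodes the cytokine, and all of them were higher in SLE123 mice. Each is the 250 bases upstream of the gene's start, 5′ to 3′ on the gene's strand, with motif matches in capitals. The motifs searched on both strands were TGCTGA (the core of the site bound by Maf proteins), the E-box CANNTG (bound by basic helix-loop-helix factors such as Ascl2) and TTCNNNGAA (the core shared by STAT and Bcl6 sites).
Bcl6 (chr16:23988853-23989102, - strand): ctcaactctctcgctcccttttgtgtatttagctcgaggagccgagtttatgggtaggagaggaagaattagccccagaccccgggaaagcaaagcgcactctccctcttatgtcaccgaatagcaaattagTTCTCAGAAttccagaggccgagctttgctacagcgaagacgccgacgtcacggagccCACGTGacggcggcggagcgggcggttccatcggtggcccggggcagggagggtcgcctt
Ascl2 (chr7:142969265-142969514, - strand): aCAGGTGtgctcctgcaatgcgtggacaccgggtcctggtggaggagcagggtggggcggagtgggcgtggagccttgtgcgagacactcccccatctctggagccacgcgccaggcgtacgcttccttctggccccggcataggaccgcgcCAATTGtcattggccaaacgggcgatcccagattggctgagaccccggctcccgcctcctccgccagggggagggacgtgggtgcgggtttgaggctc
Tox2 (chr2:163202877-163203126, + strand, the most upstream of 5 starts): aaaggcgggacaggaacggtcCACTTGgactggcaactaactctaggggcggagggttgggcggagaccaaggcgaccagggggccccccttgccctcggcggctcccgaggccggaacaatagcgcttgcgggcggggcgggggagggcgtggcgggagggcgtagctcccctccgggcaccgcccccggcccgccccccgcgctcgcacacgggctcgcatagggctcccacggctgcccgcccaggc
Il21 (chr3:37232637-37232886, - strand): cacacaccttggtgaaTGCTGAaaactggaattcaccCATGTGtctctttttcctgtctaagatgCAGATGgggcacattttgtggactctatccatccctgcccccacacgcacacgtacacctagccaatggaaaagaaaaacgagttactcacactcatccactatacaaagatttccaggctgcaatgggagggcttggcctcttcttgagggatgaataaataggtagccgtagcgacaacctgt
An E-box was present in 4 of 4 windows, against 66.2% of all 32851 windows of this length. The Il21 window held TGCTGA, as did 16.1% of all windows. The Bcl6 window held TTCNNNGAA, as did 7.02% of all windows. No 2 of these matches overlapped.

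Levels are given in FPKM (fragments scaled to transcript length and to the mapped fragments of the library), and groups were compared on log2(FPKM + 1) with limma, for the 13115 genes whose mean over the 12 mice reached 0.5 FPKM. Genes were called where the p-value, adjusted by Benjamini-Hochberg over all genes tested, was under 0.05. All 9 members passed this filter, Ascl2 only through its level in SLE123 mice. The scale understates the change of low genes. Libraries held 13563594 to 23642949 fragments. The summed level of 8 T cell markers was 1885 to 2395 FPKM in the 12 libraries. Transcripts of other cells also differed: the sum of 9 B cell markers was 3.97 to 5.46 FPKM in untreated B6, 24.6 to 33.1 in treated B6, 62.9 to 235.1 in untreated SLE123 and 36.8 to 60.3 in treated SLE123 mice. The highest of these was untreated SLE123 replicate 3. The sum of 3 liver transcripts was 31.5 to 38.3 FPKM in the 6 B6 libraries and 36.0 in treated SLE123 replicate 1, and at most 0.207 in the other 5. All 12 libraries were kept. Some results are also given without treated SLE123 replicate 1 and, for Cxcr5, without untreated SLE123 replicate 3.

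**Figure D1:**
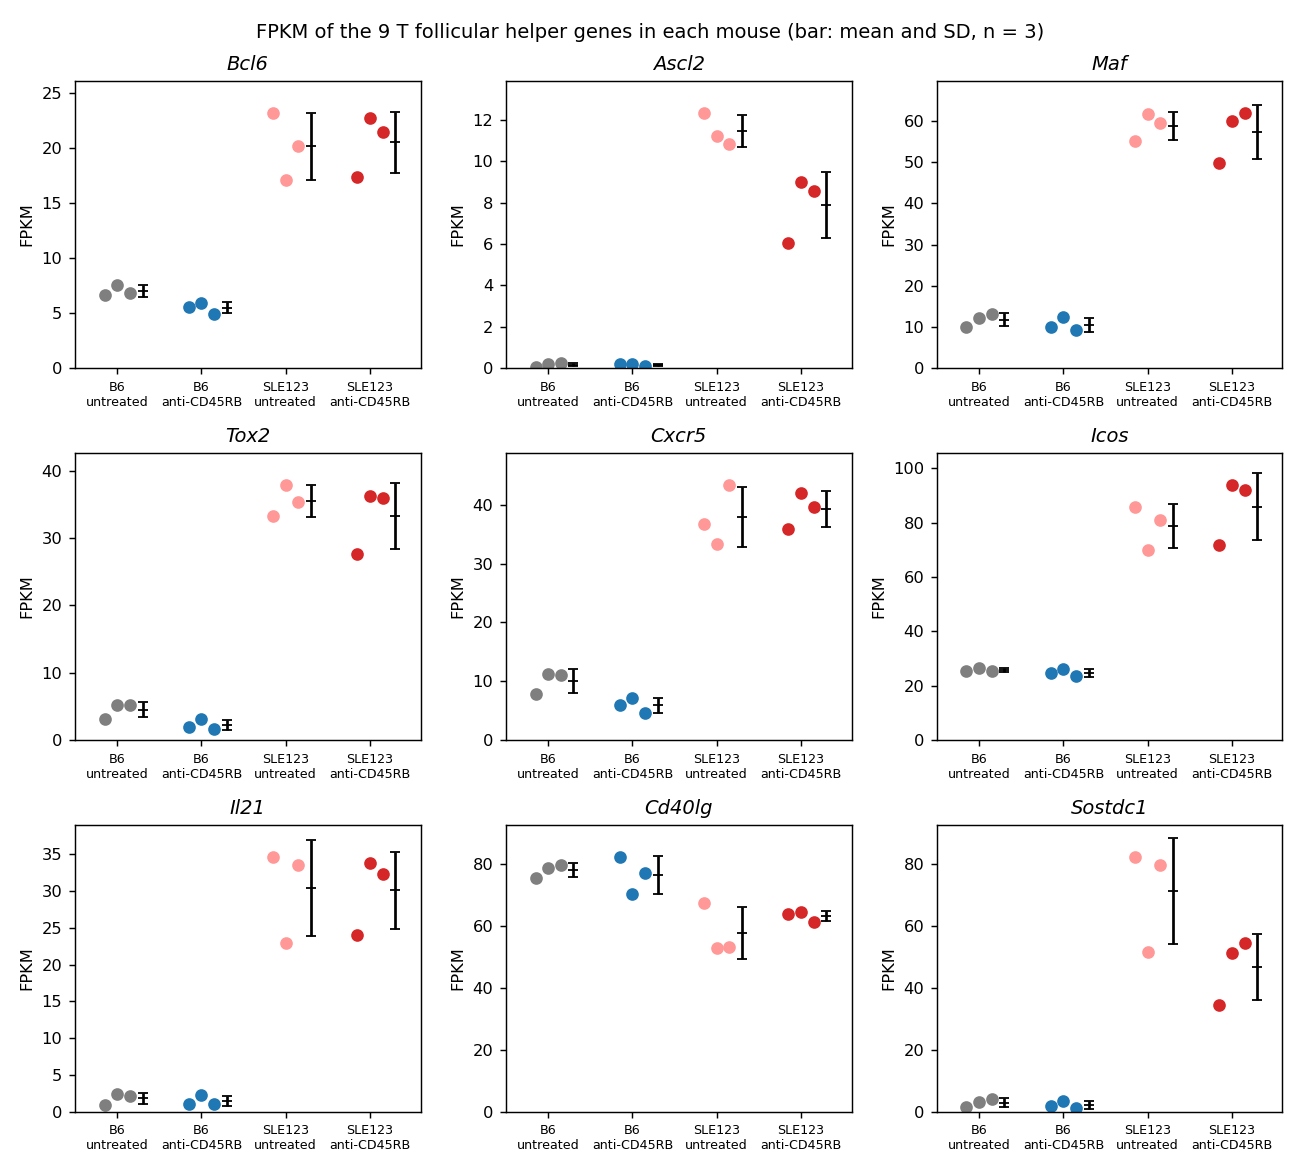
FPKM (vertical axes, from 0) of the 9 Tfh genes in each mouse of the 4 groups (horizontal axes), 1 panel per gene, 1 point per mouse, with the mean and SD (n = 3) at the right of each group. In 8 panels every SLE123 mouse lies above every B6 mouse, and in the Cd40lg panel every SLE123 mouse lies below every B6 mouse.

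The strain comparison asked how CD4+ T cells of the lupus-prone mice differed from those of B6 mice before and after the antibody. Of the 9 Tfh genes, 8 were higher in untreated SLE123 than in untreated B6 mice and 1, Cd40lg, was lower. The linear folds of the 8 ran from 2.88 for Bcl6 to 66.9 for Ascl2, and Cd40lg was 1.35-fold lower. In these bulk samples, a different number of Tfh cells, a different amount of RNA per Tfh cell and transcripts of other cells cannot be told apart. The calls (9 of 9) stand against 42.9% of all genes tested, 22.8% called higher and 20.1% called lower. The groups did not overlap for any of the 9 genes, against 58.6% of all genes without overlap. A log2 difference over 2 was reached by 5 of the 9 and by 3.45% of all genes. Ascl2 is in each of these counts, though it passed the filter only through its level in SLE123 mice, so it is no support for them. The median difference of the members was 2.24 on the log2 scale, beside -0.03 over all genes tested.

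Among the transcription factors, Bcl6, the repressor that defines the subset, was at 6.60, 7.58 and 6.81 FPKM in untreated B6 replicates 3, 4 and 5 and at 23.2, 17.1 and 20.1 FPKM in untreated SLE123 replicates 1, 2 and 3. Its log2 difference was 1.39 (SE 0.12, limma adjusted p = 0.000164). Every SLE123 value was above 17, and no B6 value reached 8. Maf, which drives Il21 and Cxcr5 in T cells, was at 9.95, 12.3 and 13.1 FPKM in B6 and at 55.2, 61.7 and 59.5 FPKM in SLE123 mice, a difference of 2.24 (SE 0.11, limma adjusted p = 1.62e-05). The spread within each strain was small beside the gap between them. Tox2, an HMG-box factor that acts in a loop with Bcl6, was at 3.18, 5.12 and 5.12 FPKM in B6 and at 33.3, 37.9 and 35.3 FPKM in SLE123 mice, a difference of 2.76 (SE 0.16, limma adjusted p = 2.74e-05).

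Ascl2, a basic helix-loop-helix factor that can start the follicular program upstream of Bcl6, was the member nearest to the detection limit in B6 mice. It was at 0.0769, 0.206 and 0.231 FPKM in untreated B6 mice, which rest on 14 fragments over the 3 libraries, and at 12.3, 11.2 and 10.8 FPKM in untreated SLE123 mice, which rest on 1080. The fragment ratio was 65.9, with a 95% interval of 39.1 to 121 that covers counting error only. On the log2(FPKM + 1) scale the difference was 3.41 (SE 0.11, limma adjusted p = 2.89e-06), with a pseudocount of 0.1 it was 5.46, and with voom on the recovered fragments it was 6.02.

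Both follicular receptors were higher in untreated SLE123 mice. Cxcr5 was at 7.75, 11.3 and 11.0 FPKM in B6 and at 36.8, 33.4 and 43.4 FPKM in SLE123 mice, a difference of 1.83 (SE 0.16, limma adjusted p = 0.000157). Cxcr5 is also a gene of B cells, and its highest level was in untreated SLE123 replicate 3, the library with the highest B cell markers. Without that library the difference was 1.73 (limma adjusted p = 0.00067). Icos was at 25.4, 26.4 and 25.4 FPKM in B6 and at 85.5, 69.9 and 80.8 FPKM in SLE123 mice, a difference of 1.57 (SE 0.09, limma adjusted p = 2.9e-05).

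The helper molecules went apart. Il21, the cytokine most tied to Tfh help, was at 0.928, 2.38 and 2.16 FPKM in untreated B6 and at 34.7, 23.0 and 33.6 FPKM in untreated SLE123 mice, a difference of 3.50 (SE 0.24, limma adjusted p = 6.31e-05). Cd40lg, the ligand that engages CD40 on B cells, was instead at 75.8, 79.0 and 79.9 FPKM in B6 and at 67.4, 52.9 and 53.3 FPKM in SLE123 mice, a difference of -0.44 (SE 0.11, limma adjusted p = 0.0152). It was the only member to be lower in SLE123 mice, and the call was lost without untreated B6 replicate 4 (adjusted p = 0.0612) or replicate 5 (adjusted p = 0.0605). Sostdc1, the secreted antagonist, was at 1.45, 3.22 and 4.12 FPKM in B6 and at 82.4, 51.4 and 79.7 FPKM in SLE123 mice, a difference of 4.23 (SE 0.29, limma adjusted p = 5.92e-05).

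The order of the members by level also differed between the strains. FPKM is scaled to transcript length, so levels of different genes can be set side by side. In untreated B6 mice Cd40lg was highest (mean 78.2 ± 2.17 FPKM, SD, n = 3), followed by Icos (25.7 ± 0.597), Maf (11.8 ± 1.61), Cxcr5 (10.0 ± 1.97), Bcl6 (7.0 ± 0.513), Tox2 (4.47 ± 1.12), Sostdc1 (2.93 ± 1.36), Il21 (1.82 ± 0.782) and Ascl2 (0.171 ± 0.0828). The ranges of Maf and Cxcr5, of Tox2 and Sostdc1 and of Sostdc1 and Il21 overlapped. In untreated SLE123 mice Icos (78.7 ± 8.03 FPKM) and Sostdc1 (71.2 ± 17.2) came before Maf (58.8 ± 3.34), Cd40lg (57.9 ± 8.29), Cxcr5 (37.9 ± 5.11), Tox2 (35.5 ± 2.32), Il21 (30.4 ± 6.49), Bcl6 (20.1 ± 3.05) and Ascl2 (11.5 ± 0.787). There, neighbouring ranges overlapped from Icos to Cd40lg and from Cxcr5 to Bcl6, a gap lay between Cd40lg and Cxcr5, and Ascl2 lay apart.

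In treated mice the same 9 calls were made, 8 higher and Cd40lg lower in SLE123 mice, beside 52.1% of all genes called, 29.6% higher and 22.5% lower. The groups did not overlap for 9 of 9 genes, against 61.8% of all genes, and the median difference of the members was 2.56, beside 0.03 over all genes. Ascl2 is again in these counts, with the limit given above for the filter. The treated and the untreated comparison use different mice. The transcription factors in treated B6 replicates 1, 3 and 5 and treated SLE123 replicates 1, 2 and 3 were as follows. Bcl6 was at 5.57, 5.92 and 4.94 FPKM against 17.4, 22.7 and 21.4 FPKM, a log2 difference of 1.73. Maf was at 9.93, 12.4 and 9.20 FPKM against 49.8, 60.1 and 62.0 FPKM, a difference of 2.34. In each, the lowest SLE123 value was that of replicate 1, and it still lay above every B6 value.

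Tox2 was at 1.98, 3.09 and 1.67 FPKM in treated B6 and at 27.6, 36.2 and 36.0 FPKM in treated SLE123 mice, a log2 difference of 3.41 and a linear fold of 14.8. Ascl2 was at 0.183, 0.189 and 0.111 FPKM against 6.04, 9.02 and 8.59 FPKM, with a fragment ratio of 49.9 (95% counting interval 28.4 to 97.1). In treated B6 libraries Ascl2 rested on 3 to 5 fragments each and Tox2 on 79 to 149.

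The receptor Cxcr5 was at 5.90, 7.14 and 4.65 FPKM in treated B6 and at 36.0, 42.1 and 39.7 FPKM in treated SLE123 mice, a log2 difference of 2.56. Icos was at 24.5, 26.1 and 23.4 FPKM against 71.6, 93.9 and 92.0 FPKM, a difference of 1.75. These 2 receptors were 6.65-fold and 3.48-fold higher in SLE123 mice on the linear scale.

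Among the secreted and helper molecules, Il21 was at 1.03, 2.27 and 1.01 FPKM in treated B6 and at 24.1, 33.9 and 32.4 FPKM in treated SLE123 mice, a log2 difference of 3.70. Sostdc1 was at 1.98, 3.59 and 1.05 FPKM against 34.5, 51.3 and 54.4 FPKM, a difference of 3.95. Both genes were more than 20 times higher on the linear scale, at 21.0-fold for Il21 and 21.2-fold for Sostdc1. Cd40lg was at 82.6, 70.4 and 77.1 FPKM against 63.9, 64.7 and 61.4 FPKM, a difference of -0.27. Adjusted p-values from limma were between 2.9e-05 for Ascl2 and 0.00948 for Cd40lg. Without treated SLE123 replicate 1, the library with liver transcripts, 9 of 9 were again called, with log2 differences of 1.83 for Bcl6, 4.15 for Sostdc1 and -0.28 for Cd40lg. That library, which has liver transcripts in common with the B6 libraries, was the lowest of its group for 8 of the 9 members. It lay above every treated B6 mouse for the 8 higher genes and below them for Cd40lg. This is 1 library, and the other SLE123 libraries lack these transcripts. The part of what the liver transcripts reflect in the strain differences was not tested.

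Of the 6 B cell markers that could be tested, 6 were higher in untreated SLE123 than in untreated B6 mice, beside 22.8% of all genes. In treated mice 3 were higher and 2 were lower, beside 29.6% and 22.5% of all genes. The part of B cell transcripts in the strain differences was not tested. Immunoglobulin genes took 0.0895 to 0.336% of the fragments in B6 libraries and 2.51 to 12.2% in SLE123 libraries, and these count toward the total by which FPKM is scaled. Of all calls, 53.2% were higher in untreated and 56.8% in treated SLE123 mice. Rescaling to TPM moved these shares to 24.3% and 35.3%, with the median of all genes shifted by -0.37 and -0.17, and scaling without immunoglobulin genes moved the former to 67.4%. The 8 higher members and the lower Cd40lg kept their direction and call under each of these scalings.

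**Figure D2:**
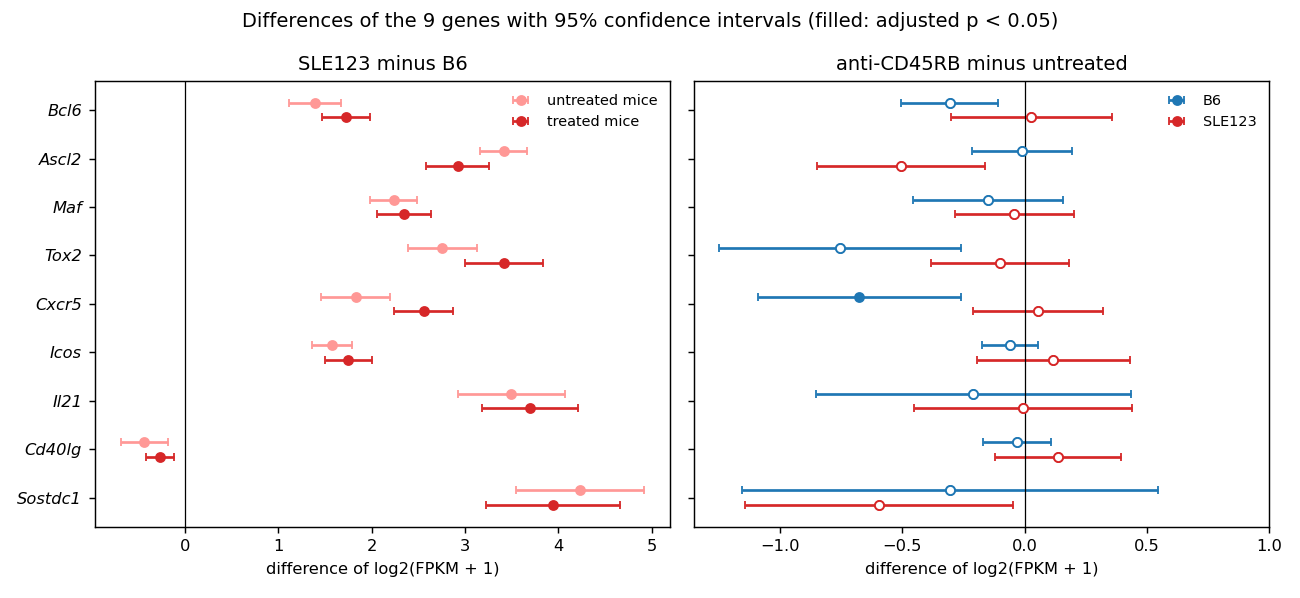
Differences of log2(FPKM + 1) with 95% confidence intervals (horizontal axes) for the 9 genes: SLE123 minus B6 in untreated and in treated mice (left), and anti-CD45RB minus untreated in each strain (right), with filled points for limma adjusted p-values under 0.05. All strain differences are filled, and of the treatment differences Cxcr5 in B6 is filled.

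The treatment comparison asked whether the antibody changed the effector compartment of each strain. In B6 mice, Cxcr5 was the only member called after anti-CD45RB, and it fell from a mean of 10.0 ± 1.97 to 5.90 ± 1.24 FPKM (SD, n = 3). The log2 difference was -0.68 (SE 0.17, limma adjusted p = 0.0454), and every treated mouse lay below every untreated mouse. The count of 1 of 9 stands beside 14.9% of all genes tested that were called in either direction and 6.12% of all genes tested that were called lower. The call was lost without any of treated B6 replicates 1 and 5 and untreated B6 replicates 4 and 5, with limma adjusted p-values of 0.0948 to 0.145, and with no filter on low values (0.0785). Each treatment comparison shares its mice with the strain comparisons.

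Tox2 and Bcl6 did not pass the test, at -0.76 (SE 0.21, limma adjusted p = 0.0545) and -0.31 (SE 0.08, limma adjusted p = 0.0534), though the treated mice lay below the untreated mice for either. With Cxcr5 these were the 3 of 9 members whose treated mice all lay lower, beside 18.6% of all genes. The 6 other members overlapped, with differences between -0.30 for Sostdc1 and -0.01 for Ascl2. Their intervals were narrow for Icos (-0.17 to 0.05) and Cd40lg (-0.17 to 0.11) and wide for Sostdc1 (-1.15 to 0.54) and Il21 (-0.85 to 0.43). In the same comparison all 6 testable B cell markers rose, beside 14.9% of all genes called in either direction, with 58.8% of these calls higher. Of 8 T cell markers 3 fell (Cd3g, Cd5 and Cd28), beside 6.12% of all genes called lower. The part of either in the lower Cxcr5 was not tested.

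In SLE123 mice none of the 9 members was called after anti-CD45RB with limma, beside 0.0381% of all genes, and 2 of 9 had an unadjusted p-value under 0.05, beside 10.4% of all genes. Ascl2 was at 12.3, 11.2 and 10.8 FPKM in untreated and at 6.04, 9.02 and 8.59 FPKM in treated mice, a difference of -0.50 (95% interval -0.85 to -0.16, limma adjusted p = 0.448). Its groups did not overlap, with treated mice lower, as for 6.02% of all genes. Sostdc1 was at -0.59 (95% interval -1.14 to -0.05, limma adjusted p = 0.467), and its groups overlapped. Without treated SLE123 replicate 1, which was lowest for 8 of the 9 members, these differences were -0.35 and -0.39.

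The other 7 members had differences between -0.10 (Tox2) and 0.14 (Cd40lg) in SLE123 mice. The intervals were -0.21 to 0.32 for Cxcr5, -0.38 to 0.18 for Tox2, -0.30 to 0.36 for Bcl6 and -0.45 to 0.44 for Il21. The treatment effects of the strains were then compared directly as a strain-by-treatment interaction over the 12 mice. None of the 9 was called with limma, beside 3.64% of all genes, and 3 had an unadjusted p-value under 0.05, beside 25.1%: Cxcr5 (0.73, SE 0.22, limma adjusted p = 0.0896), Ascl2 (-0.49, SE 0.18, limma adjusted p = 0.128) and Tox2 (0.66, SE 0.26, limma adjusted p = 0.15). A different response of these genes in the 2 strains was therefore not established at this depth of replication. Rescaled to TPM, Cxcr5 was called (0.98, limma adjusted p = 0.0398).

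Further genes known to be high in Tfh cells were taken from a list of 18. In untreated mice 11 of 18 were higher and 3 lower in SLE123 than in B6, with a median difference of 0.47 beside -0.03 over all genes, and in treated mice 14 were higher and 3 lower, with a median of 0.74 beside 0.03. Of all genes tested, 22.8% were called higher and 20.1% lower in untreated mice, and 29.6% and 22.5% in treated mice. Pdcd1, which encodes the inhibitory receptor PD-1, went from 13.5 ± 2.27 FPKM in untreated B6 to 151 ± 19.1 FPKM in untreated SLE123 mice (SD, n = 3), a log2 difference of 3.40 (limma adjusted p = 8.77e-06). The surface protein Cd200 (1.97), the adaptor Sh2d1a (SAP, 0.44) and its receptor Slamf6 (1.20), all of which act at the contact of T and B cells, were called higher, as were the factors Batf (1.74), Irf4 (2.71), Tox (1.29) and Pou2af1 (3.01). Slamf6 is a SLAM family gene of the Sle1 region, in which the strains differ by design, and the part of that region in its difference was not tested. Pou2af1 and Irf4 are also genes of B and plasma cells, and the 4 plasma cell markers were higher in SLE123 mice in both comparisons.

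The 3 lower genes of this list, named for their small number after their values were seen, were Tcf7 (-0.80), Lef1 (-1.22) and Il6ra (-0.81), and they were lower in treated mice as well. Tcf7 and Lef1 are factors of naive T cells as well as of early Tfh cells. After anti-CD45RB, 6 of the 18 fell in B6 mice, beside 6.12% of all genes called lower. Among them were Slamf6 (-0.40, limma adjusted p = 0.0179), Tox (-0.39, limma adjusted p = 0.022) and Sh2d1a (-0.21, limma adjusted p = 0.0343), and 1 rose, Batf (0.26, limma adjusted p = 0.0426). In SLE123 mice 0 of 18 were called, beside 0.0381% of all genes, and 0 had an unadjusted limma p-value under 0.05, beside 10.4%. The strain-by-treatment interaction was called for 0 of 18, beside 3.64% of all genes, and 7 had an unadjusted limma p-value under 0.05, beside 25.1%. A different response of these genes in the 2 strains was therefore not established.

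Of 12 genes that are low in Tfh cells or act against their formation, 6 were lower and 2 higher in untreated SLE123 mice, and 8 were lower and 3 higher in treated SLE123 mice. Over all genes, 20.1% were called lower and 22.8% higher in untreated mice, and 22.5% and 29.6% in treated mice. Lower in both were Ccr7 (-1.48 untreated, -0.85 treated), the receptor that keeps T cells in the T cell zone, S1pr1 (-1.12, -0.46), the egress receptor, Foxo1 (-0.97, -0.50), a factor that restrains Bcl6, Il7r (-0.87, -1.04) and Selplg (-0.51, -0.60). Prdm1, which encodes Blimp-1, the repressor that opposes Bcl6, was higher in SLE123 mice in spite of the higher Bcl6, with 11.7 ± 3.60 FPKM against 2.53 ± 0.286 FPKM in untreated mice (SD, n = 3) and a difference of 1.81 (limma adjusted p = 0.000394). Id2, an inhibitor of E proteins, was also higher (0.59, 0.55), and in treated mice Stat5a was the third (0.23). Prdm1 is a gene of plasma cells and regulatory T cells too. Klf2 had a lower mean in SLE123 than in B6 mice, at 145.5 ± 50.0 against 212 ± 5.48 FPKM untreated and 168 ± 15.2 against 353 ± 14.2 FPKM treated (SD, n = 3).

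Klf2, a factor that holds back Tfh formation and drives S1pr1, rose in B6 mice after anti-CD45RB from 212 ± 5.48 to 353 ± 14.2 FPKM (SD, n = 3), a difference of 0.73 (limma adjusted p = 0.000363). Selplg rose by 0.26 and Ccr7 fell in the same mice (-0.24), while S1pr1 was at -0.02 and did not pass. In SLE123 mice 0 of 12 were called with limma, beside 0.0381% of all genes. An unadjusted p-value under 0.05 was seen for 2, beside 10.4% of all genes, and Klf2 was at 0.26 (SE 0.24). The interaction was called for 0 of 12, beside 3.64% of all genes, and 3 had an unadjusted limma p-value under 0.05, beside 25.1%. For these genes too, a different response in the 2 strains was not established.

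**Figure D3:**
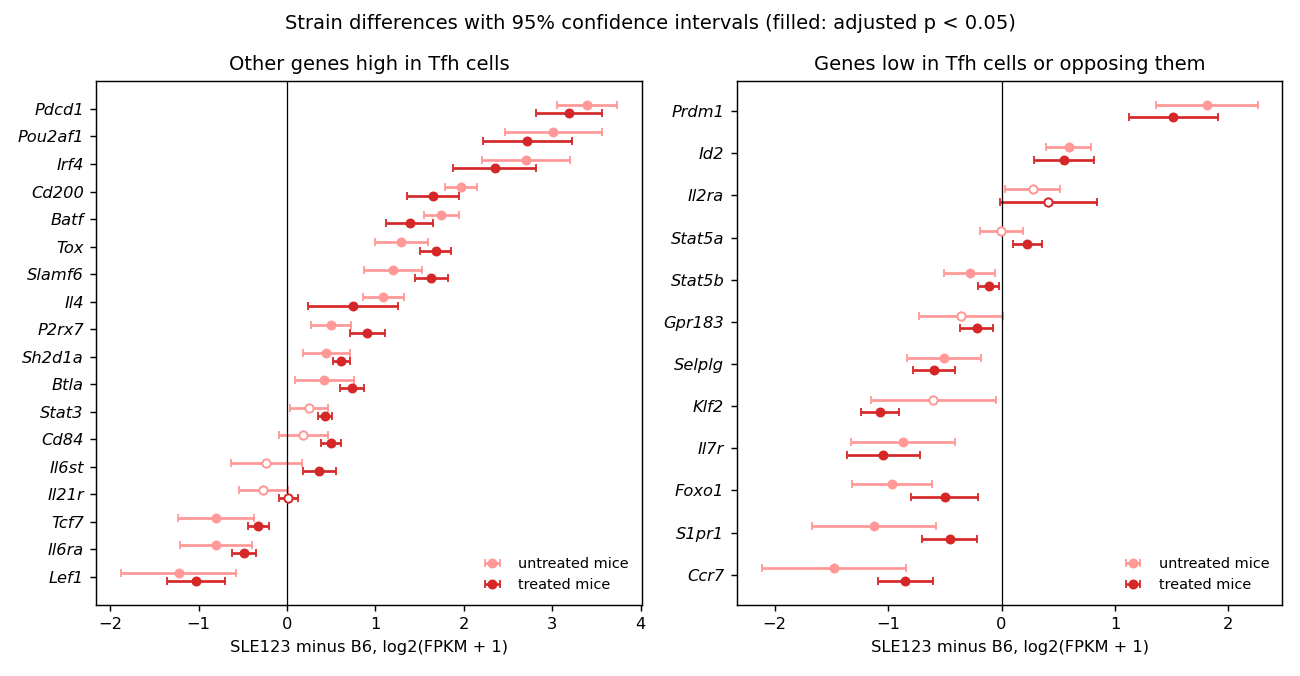
SLE123 minus B6 differences of log2(FPKM + 1) with 95% confidence intervals (horizontal axes) in untreated and in treated mice, for 18 further genes high in Tfh cells (left) and 12 genes low in them or opposing them (right), with filled points for limma adjusted p-values under 0.05. Pdcd1, Pou2af1 and Irf4 lie farthest to the right, while Prdm1 lies apart from the lower Ccr7, S1pr1 and Foxo1 in the right panel.

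Genes of regulatory and antigen-experienced T cells moved with the Tfh genes between the strains. Of 6 regulatory T cell genes, 5 were higher in SLE123 mice in each strain comparison, beside 22.8% (untreated) and 29.6% (treated) of all genes. They included Foxp3 (1.28 untreated, 1.37 treated), the factor of the lineage, Ctla4 (2.31, 2.34) and Il10 (3.02, 2.60). After treatment 0 of 6 were called in either strain, beside 14.9% of all genes in B6 and 0.0381% in SLE123 mice (2 had an unadjusted limma p-value under 0.05 in each). For Foxp3 every treated mouse lay above every untreated mouse in both strains. Its log2 differences were 0.56 in B6 (limma adjusted p = 0.054) and 0.65 in SLE123 mice (limma adjusted p = 0.0989). Among genes of naive and memory T cells, the activation marker Cd44 was higher (1.27, 0.85), and Ccr7 and Il7r, which naive cells carry, were lower. After treatment, Ccr7 was the only 1 of these 3 called in B6 mice, and none was called in SLE123 mice with limma (0 at an unadjusted p-value under 0.05). Follicular regulatory T cells share Bcl6, Cxcr5 and Foxp3, and the part of these cells in the levels was not tested.

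Of 4 partners of the Tfh molecules on other cells, 3 did not pass the filter. Icosl, the ligand of Icos, was tested and not called in any comparison (means of 4.44 to 5.85 FPKM), and Cxcl13, Cd40 and Il6 were at most 0.0507, 1.26 and 0.546 FPKM in any library. Of the germinal center B cell genes S1pr2, which Tfh cells also express, was called higher in SLE123 mice (1.65 untreated, 1.23 treated), while Mef2b and Gcsam were at most 0.439 and 0.184 FPKM. In treated SLE123 against treated B6 mice, 4 of 8 T cell markers were higher and 1 lower, and in untreated mice 0 of 8 were called (0 at an unadjusted limma p-value under 0.05). The markers of other cells moved as follows in the strain comparison of untreated mice: 5 of 6 myeloid genes and 3 of 3 basophil genes were higher, 0 of 3 dendritic cell genes were called (2 at an unadjusted limma p-value under 0.05), and Cd8b1, 1 of 2 NK cell genes and 3 of 3 liver genes were lower. In treated SLE123 against treated B6 mice, 0 of 6 myeloid genes were higher and 3 were lower. There, 1 of 3 basophil genes was higher, and Cd8b1, 2 of 3 dendritic and 2 of 2 NK cell genes were lower. Of the 3 liver genes 0 were called there (2 at an unadjusted limma p-value under 0.05). In B6 mice after treatment, 5 of 6 myeloid, 2 of 3 basophil, 2 of 3 dendritic and 1 of 2 NK cell genes rose, 1 of 4 plasma cell genes rose, and Cd8b1 and the 3 liver genes were not called. Over all genes, 22.8% were called higher and 20.1% lower between untreated strains, and 29.6% and 22.5% between treated strains. After treatment of B6 mice 14.9% were called in either direction, and 58.8% of these calls were higher. In SLE123 mice after treatment, the basophil gene Mcpt8 was called lower (-1.59, limma adjusted p = 0.0208). Every treated mouse lay lower for 3 of 3 basophil, 3 of 6 myeloid and 4 of 6 B cell genes, beside 6.02% of all genes. For 1 of 2 NK cell genes every treated mouse lay higher. The interaction was called, each time negative, for 5 of 6 myeloid, 3 of 3 basophil and 3 of 6 B cell genes, beside 3.64% of all genes. The part of these markers in the members' differences was not tested.

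**Figure D4:**
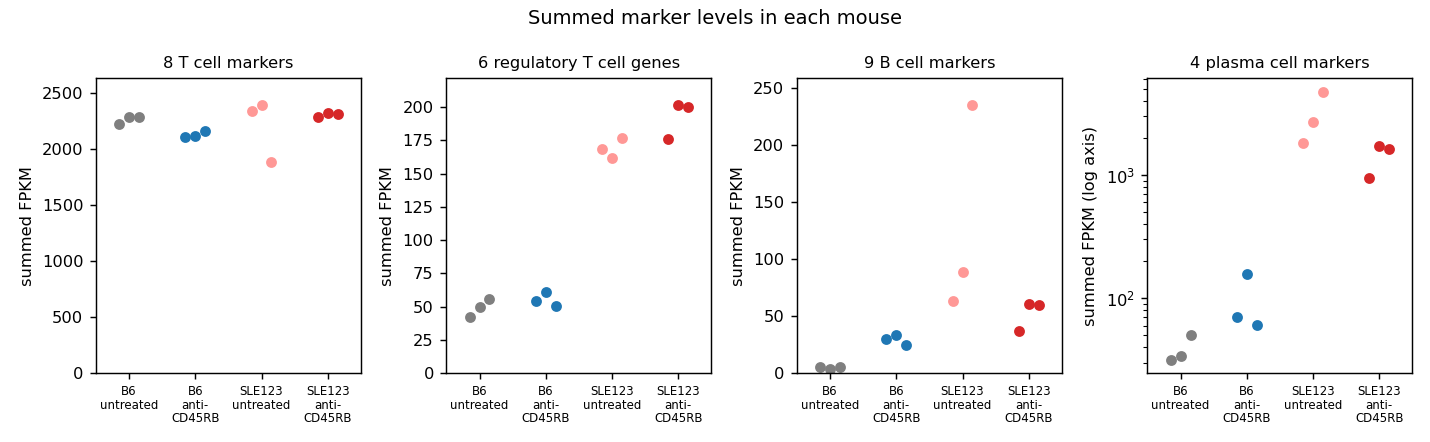
Summed FPKM (vertical axes, from 0 except for the log axis of the plasma cell panel) of 8 T cell, 6 regulatory T cell, 9 B cell and 4 plasma cell genes in each mouse of the 4 groups (horizontal axes), 1 point per mouse. T cell sums lie between 1885 and 2395 FPKM in all 12 mice, regulatory T cell sums are higher in every SLE123 mouse, and untreated SLE123 replicate 3 has the highest B cell sum at 235.1 FPKM.

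For each member, the 3 genes with the most similar pattern were taken by Pearson's r of log2(FPKM + 1) over the 12 mice. The 27 values lay between 0.979 and 0.997, and as most of this follows the gap between the strains, r within the 6 mice of each strain is given beside it. These are descriptions over mice that share strain and treatment, without a test. Pdcd1 was among the nearest genes of 3 members, Ascl2, Il21 and Sostdc1, and for Sostdc1 r was 0.975 in B6 and 0.973 in SLE123 mice. Tox2 and Cxcr5 were among each other's nearest genes, with r of 0.991 in B6 and 0.203 in SLE123 mice, and both were near B4galnt4. Bcl6 was nearest to Tbc1d4 (0.941 in B6, 0.956 in SLE123), Hivep3 and Itgb8, and Maf was nearest to Lag3 (0.779, 0.877), Cst7 and Kctd17. Icos was nearest to Tspoap1 (0.554, 0.942), Eea1 and Synpo, and Cd40lg, which went the other way, to Card6 (0.800, 0.980), Hps3 and Orai2. Ascl2 was also near Eif3j2 (-0.212, 0.960), whose likeness therefore did not hold within B6 mice, where Ascl2 rests on few fragments.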

How the data were processed

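CD4+ T cells of 12 mice were sequenced, 1 library per mouse, and groups were read from the sample titles and treatment labels. The authors deposited FPKM values per Ensembl gene. According to their processing notes base calls came from CASAVA 1.8, and STAR and mm10 are named. The counting program and the annotation are not given in the sources used here. Fragments were recovered from the FPKM values as whole multiples of the value of 1 fragment, which held for 100% of the 23230 genes above 0 (tolerance 0.01 fragment). A floor of 3 fragments on 2000 bases is 0.0634 to 0.111 FPKM, for counting error only.

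log2(FPKM + 1) was tested with limma 3.58.1 in R 4.3.3 (lmFit, then eBayes with a trend) on the 6 mice of each comparison, and on 12 for the interaction, over the 13115 genes whose mean reached 0.5 FPKM, and p-values were adjusted by Benjamini-Hochberg with a threshold of 0.05. The study's own tests used DESeq2 on pairs of conditions, which was not run. The fit was tested on simulated data.

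The members, the 15 lists of related genes and cell markers and the tests were chosen with earlier results of these data known. Genes named are all 9 members, list genes called in at least 1 of 5 comparisons (at most 8 per list, smallest adjusted p-value first) and, for each member, the 3 tested genes with the highest r, without predicted genes and antigen receptor segments. Tcf7, Lef1, Il6ra and Stat5a were named after their values were seen. Some genes of the lists are not reported here by name. Alternatives tried were TPM, 0.1 in place of 1 as pseudocount, filtering at 1 FPKM or not at all, centring on the median log-ratio, scaling without the 257 immunoglobulin genes, voom on recovered fragments, leaving out each mouse, a block for the replicate number and 1 fit of all 12 mice.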

Additional observations from a re-analysis of the deposited data

How the results depend on the processing

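Of 711 values of single members under the alternatives, 668 kept their direction and their side of the threshold, 9 lost the call, 10 gained it and 24 changed sign. In the strain comparisons 8 or 9 of 9 members were called under every alternative, and the call that was lost was Cd40lg. In SLE123 mice 0 of 9 were called after treatment under every alternative. In B6 mice, where 1 was called, the count was 3 with a filter at 1 FPKM and with voom, 2 with median centring and with all 12 mice in 1 fit, and 0 with no filter and with the replicate block, and 0 to 2 when 1 mouse was left out. The interaction count was 1 with TPM and 0 to 1 when 1 mouse was left out, the latter Cd40lg without untreated SLE123 replicate 1 (adjusted p = 0.0444 with limma).

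The values that changed sign had not been called. In B6 mice these were Ascl2 with median centring (0.00108), Il21 with the replicate block (0.0517) and, leaving out 1 mouse, Ascl2 (-0.0704 to 0.0263) and Cd40lg (-0.0847 to 0.0291). In SLE123 mice TPM gave Maf 0.15, Tox2 0.0882 and Il21 0.18, median centring gave Bcl6 -0.0136, and scaling without immunoglobulin genes gave Bcl6 -0.0269 and Cxcr5 -0.000338. Leaving out 1 SLE123 mouse gave ranges of -0.0806 to 0.136 for Bcl6, -0.101 to 0.0548 for Maf, -0.165 to 0.0246 for Tox2, -0.0288 to 0.156 for Cxcr5 and -0.19 to 0.14 for Il21. For the interaction, Il21 was -0.058 with the replicate block, and Sostdc1 was -0.57 to 0.0188 when 1 mouse was left out. The cause was not tested.

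Over all genes, the calls were 1948 in B6 (0 to 2717 under the alternatives), 5 in SLE123 (1 to 53), 5621 for strain in untreated mice (5182 to 7888), 6836 in treated mice (3414 to 7091) and 478 for the interaction (34 to 545). Leaving out 1 mouse gave 675 to 1393, 1 to 7, 3672 to 6469, 5524 to 6685 and 205 to 2917. Of the interaction calls 34.7% were higher, and 20.5% with median centring and 22.9% without immunoglobulin genes. Deviations of same-numbered mice correlated between -0.161 and 0.267, so the replicate numbers were not taken to pair the mice. With the number as a block, the B6 call of Cxcr5 (adjusted p = 0.345) and the call of Cd40lg between treated strains (adjusted p = 0.0595) were lost, and the untreated strains share 1 number, which allows no such fit.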

Other observations

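Within groups, some mice were lowest or highest for most of the members. Untreated B6 replicate 3 was the lowest of its group for 9 of 9 members, treated B6 replicate 3 was the highest for 8 and replicate 5 the lowest for 8, and treated SLE123 replicate 1 was the lowest for 8. The last of these is the SLE123 library with liver transcripts, and its immunoglobulin share of 2.51% was the lowest of the 6 SLE123 libraries. Untreated SLE123 replicate 3, with the highest immunoglobulin share (12.2%), was the highest for 1 member and the lowest for 1.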
